A study of Mus musculus with 26 samples.

Results

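The genes that encode subunits of the AP-1 transcription factor were examined in murine EML4-ALK lung cancer lines before and during inhibition of ALK. They were Fos, Fosb, Fosl1, Fosl2, Jun, Junb, Jund, Atf3, Batf3 and Maff, chosen by name, ignoring case, as 10 of the 55391 gene symbols in the count table. All 10 were among the 14264 genes that passed the filter on low counts, although Batf3 was at 0 counts in some libraries. The 3 lines all carry a fusion of Eml4 with the receptor tyrosine kinase gene Alk and come from lung tumours of C57BL/6 mice, in which an adenovirus delivered Cas9 and guides against both genes. EA2 was obtained from another institution. Each is a single established line, so that a difference between lines cannot be told apart from any other difference between the tumours they came from. Cultures received either 100 nM alectinib, an inhibitor of the ALK kinase, or its solvent DMSO at 0.1%, and RNA was sequenced on days 1, 2, 3 and 5. With 1 library for each combination, 24 libraries were compared and the 4 days served as replicates within a line and treatment. Their spread therefore holds both time in culture and technical error, and no culture was repeated within a day.

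AP-1 is a dimer of basic leucine zipper proteins. Fos proteins must pair with a Jun protein to bind DNA, whereas Jun proteins can also pair with each other, and ATF, BATF and small MAF proteins widen the range of dimers and of sites. Fos, Fosb, Jun and Junb are classical immediate early genes whose transcripts rise within minutes of growth factor signalling, Fosl1 and Fosl2 encode the more slowly induced FRA1 and FRA2 proteins, and ERK signalling, which ALK fusions feed, is a known input to several of them. All levels below are of RNA, and a change in RNA per cell cannot be told apart from a change in the share of cells that hold it.

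In mm10 the Fos family lies at chr12:85473890-85477273 (Fos, plus strand), chr7:19302696-19310051 (Fosb, minus), chr19:5447547-5455946 (Fosl1, plus) and chr5:32135801-32157842 (Fosl2, plus). The Jun family lies at chr4:95049034-95052222 (Jun, minus), chr8:84974484-84978718 (Junb, minus) and chr8:70698949-70700616 (Jund, plus). Atf3 is at chr1:191170296-191218039 on the minus strand, close to Batf3 at chr1:191097847-191108945 on the plus strand, and Maff is at chr15:79346621-79359076 on the plus strand. Counts are summed over a gene's exons. Exons of the opposite strand overlap 57.2% of the Fosl1 exon bases (from Ccdc85b) and 52.6% of those of Jund (from Gm11175), and smaller shares of Jun (7.28%, Junos) and Junb (7.52%, Prdx2). Which strand was counted is not given in the sources used here, so reads of these pairs cannot be told apart and the values of Fosl1 and Jund are uncertain to that extent.

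RefSeq promoter sequences on GRCm38.p6 were matched for 9 members, in 11 windows, and the 250 bases before the annotated start were searched on both strands. The windows of 4 members are shown because their transcripts moved in different ways: Fos and Fosl2 moved in opposite directions with alectinib in EA1 and EA2, and Jun and Atf3 changed direction between early and late days in EA1 and EA3. Capitals mark a match to TGACNTCA, a pattern that takes in the cAMP response element TGACGTCA, or to the half-site TGACGT, which that element also contains.
Fos, chr12:85473640-85473889, plus strand: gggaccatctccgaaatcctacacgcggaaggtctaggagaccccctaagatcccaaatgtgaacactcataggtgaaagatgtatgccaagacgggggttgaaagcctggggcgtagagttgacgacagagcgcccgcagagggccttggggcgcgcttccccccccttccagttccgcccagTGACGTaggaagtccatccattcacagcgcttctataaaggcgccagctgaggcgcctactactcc
Fosl2, chr5:32136222-32136471, plus strand: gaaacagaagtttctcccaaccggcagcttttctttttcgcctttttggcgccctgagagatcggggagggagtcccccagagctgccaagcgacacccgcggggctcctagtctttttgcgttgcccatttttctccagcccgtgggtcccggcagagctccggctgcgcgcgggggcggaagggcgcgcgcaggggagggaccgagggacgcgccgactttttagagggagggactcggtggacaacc
Jun, chr4:95052223-95052472, minus strand: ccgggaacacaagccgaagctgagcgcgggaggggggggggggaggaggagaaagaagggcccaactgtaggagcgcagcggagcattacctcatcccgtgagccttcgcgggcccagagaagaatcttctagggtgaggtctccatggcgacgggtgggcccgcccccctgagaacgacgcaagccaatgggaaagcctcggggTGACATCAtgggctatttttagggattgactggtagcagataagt
Atf3, chr1:191183334-191183583, minus strand: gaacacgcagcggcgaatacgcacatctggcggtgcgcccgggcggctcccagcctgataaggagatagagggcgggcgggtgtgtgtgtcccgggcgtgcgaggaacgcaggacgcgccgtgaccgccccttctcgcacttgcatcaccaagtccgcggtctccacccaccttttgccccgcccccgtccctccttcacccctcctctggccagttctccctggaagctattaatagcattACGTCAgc
The match of Jun (TGACATCA) begins 45 bases before the start, the half-site of Fos 66 bases and that of Atf3, read on the other strand, 8 bases before it. The Fosl2 window holds neither. Jun and Maff were the 2 members with a full element and Fos, Atf3 and Maff the 3 with a half-site, against 7.49% and 6.47% of 32851 mouse promoters. No member window held the TPA response element TGANTCA, present in 6.75% of promoters, or the ETS sequence CCGGAA, present in 12%. Shorter ETS sequences such as GGAA, which the Fos and Fosl2 windows hold, were not searched. These matches describe letters in a window and say nothing about binding.

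Library totals lay between 5780062 and 11732401 counts. A further 2 libraries are labelled EA3 day 7, but their log2 CPM correlated with the EA2 libraries of the same treatment at Pearson r of 0.9425 to 0.9881 and with the EA3 libraries at 0.8523 to 0.8899. They were kept out of the comparisons, and member calls that change with them are given beside the result. In DMSO, the mean levels of Alk for EA1, EA2 and EA3 were 73.7, 119 and 84.5 CPM. Of 8 lung epithelial markers, Krt18 was abundant in each line (group means between 1600 and 1890 CPM in DMSO) and Krt7 was at a mean of 0.213 CPM in EA2, whereas Nkx2-1 and Sftpc, which define distal lung epithelium, reached at most 0.751 CPM in any library. Krt18 fell with alectinib by 1.55 ± 0.33, 1.79 ± 0.33 and 1.16 ± 0.32 on the log2 scale in EA1, EA2 and EA3. Of the 6 epithelial markers tested, 1 rose and 1 fell in EA1, 2 rose and 2 fell in EA2 and 1 rose and 1 fell in EA3, the ones that rose being Epcam in EA1 (2.41 ± 0.51), Cdh1 and Krt7 in EA2 (1.55 ± 0.20 and 3.3 ± 0.54) and Cdh1 in EA3 (0.62 ± 0.20). The 8 epithelial markers summed to 4800 to 9170 CPM in DMSO and 3210 to 5400 CPM with alectinib in EA1, 1820 to 2690 and 562 to 1180 in EA2, and 5270 to 7800 and 3440 to 8040 in EA3. The summed level of 7 fibroblast markers was higher with alectinib in each line, from 9.55 to 45.3 CPM in DMSO to 125 to 472 CPM in EA1, from 57.0 to 71.3 to between 119 and 241 in EA2, and from 10.3 to 20.5 to between 84.8 and 271 in EA3. Of the 6 that were tested, 5, 3 and 5 rose in EA1, EA2 and EA3, while Lum was at 0 in all DMSO libraries. The part of these marker changes in the results was not tested. The 6 immune cell markers summed to at most 93.7 CPM and the 3 endothelial markers to at most 9.17 CPM in any library.

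Alectinib lowered Fos and Fosl1 in all 3 lines and raised Fosl2 in EA1 and EA2. Fos was 8.06-fold, 6.49-fold and 9.83-fold lower in EA1, EA2 and EA3, Fosl1 was 4.87-fold, 8.17-fold and 11.5-fold lower, and Fosl2 rose 3.51-fold in EA1 and 5.38-fold in EA2. In EA1, 4 of the 10 members were lower and 1 was higher, where 15.8% and 18.0% of all genes were. In EA2, 2 were lower and 1 higher, against 11.3% and 13.0% of all genes. In EA3, 5 were lower and none higher, against 15.8% and 16.5% of all genes, and no member was higher at an unadjusted p under 0.05 or with DESeq2 either. Median log2 fold changes of the members for EA1, EA2 and EA3 were -1.37, -0.24 and -1.37, against 0.03, 0.00 and 0.04 over all genes. The plot of fitted changes by line shows Fos and Fosl1 to the left of 0 in every line and Fosl2 to the right.

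**Figure D1:**
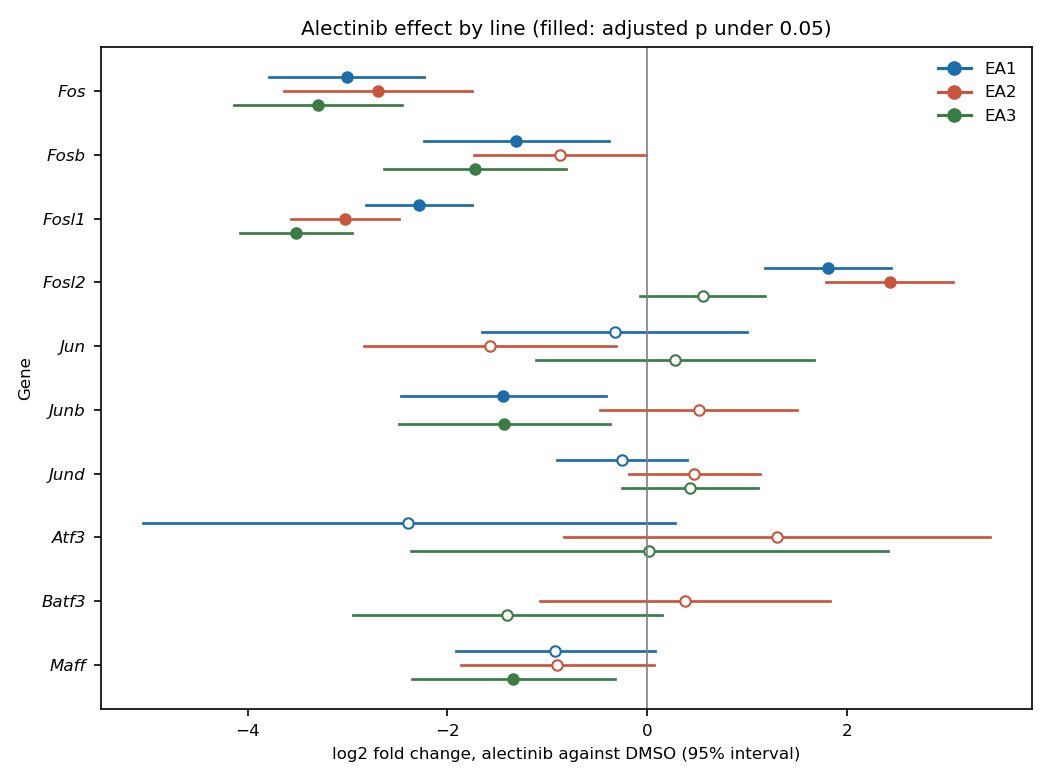
Fitted log2 fold change of each AP-1 subunit transcript, alectinib against DMSO (x axis), by gene (y axis) and line (colour), with 95% intervals as bars and filled points where the edgeR adjusted p was under 0.05. Batf3 in EA1 is left out because 4 libraries were at 0 counts; the intervals of Fos and Fosl1 lie below 0 in all 3 lines.

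Fos encodes c-FOS, the founding member of its family and a short-lived, signal-induced protein. In EA1, Fos was at 9.65, 18.8, 18.8 and 34.4 CPM (counts scaled to a common library size with TMM factors) on days 1, 2, 3 and 5 in DMSO and at 1.73, 1.49, 3.65 and 2.82 CPM with alectinib. In EA2 it was at 3.24, 2.48, 10.2 and 2.43 CPM in DMSO and at 0.795, 0.519, 1.11 and 0.222 CPM with alectinib. These EA2 alectinib levels rest on 8, 3, 10 and 2 counts of Fos, so the size of its fall there is uncertain. In EA3 Fos was at 2.55, 8.09, 37.3 and 89.4 CPM in DMSO and at 0.740, 1.21, 2.98 and 4.61 CPM with alectinib. Each alectinib library was below the DMSO library of its day, and the groups overlapped in EA3 alone, where the first DMSO day was low. With alectinib, the log2 fold change was -3.01 ± 0.36 (SE) in EA1 (edgeR adjusted p = 6.03e-05), -2.70 ± 0.44 in EA2 (0.000608) and -3.30 ± 0.39 in EA3 (6.12e-05). The test for a difference of the effect between lines gave an edgeR adjusted p of 0.762. All alternatives with a value kept the 3 calls.

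Fosl1 encodes FRA1, a Fos protein that lacks a transactivation domain and is associated with invasive growth of carcinoma cells. In EA1, Fosl1 was at 16.0, 15.4, 36.7 and 35.3 CPM in DMSO and at 2.79, 3.85, 9.02 and 5.8 CPM with alectinib. In EA2 it was at 52.3, 46.0, 63.6 and 39.3 CPM in DMSO and at 11.2, 7.44, 4.77 and 3.11 CPM with alectinib. In EA3 it was at 26.5, 19.7, 56.6 and 51.9 CPM in DMSO and at 2.40, 1.32, 6.14 and 4.08 CPM with alectinib. The groups did not overlap in any line. The log2 fold change was -2.28 ± 0.25 in EA1 (edgeR adjusted p = 2.78e-05), -3.03 ± 0.25 in EA2 (5.21e-06) and -3.52 ± 0.26 in EA3 (2.56e-06), and the calls held under every alternative that gave a value. The difference between lines did not pass (edgeR adjusted p = 0.0895). Ccdc85b, whose exons overlap those of Fosl1, had 170 to 837 counts in DMSO and log2 changes for EA1, EA2 and EA3 of 0.47, 0.01 and -0.93 (edgeR adjusted p = 0.166, 0.995 and 0.0126), and its part in the Fosl1 values was not tested.

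Fosl2 encodes FRA2, the other Fos protein without a strong transactivation domain. In EA1, Fosl2 was at 60.7, 91.7, 146 and 165 CPM in DMSO and at 369, 357, 418 and 372 CPM with alectinib. In EA2 it was at 111, 90.1, 124 and 98.9 CPM in DMSO and at 596, 469, 611 and 598 CPM with alectinib. In EA3 it was at 111, 98.3, 289 and 261 CPM in DMSO and at 285, 253, 262 and 205 CPM with alectinib. The groups were separate in EA1 and EA2 and overlapped in EA3, where alectinib libraries were higher on days 1 and 2 and slightly lower on days 3 and 5. The log2 fold change was 1.81 ± 0.29 in EA1 (edgeR adjusted p = 0.00053), 2.43 ± 0.29 in EA2 (6.96e-05) and 0.56 ± 0.29 in EA3 (0.16).

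Fosl2 was the 1 member of 10 whose alectinib effect differed between lines (edgeR adjusted p = 0.0322, test with 2 degrees of freedom), where 7.05% of all genes did. The log2 effect in EA3 minus that in EA2 was -1.87 (95% interval -2.74 to -1.0, edgeR adjusted p = 0.0279). Minus that in EA1 it was -1.25 (-2.13 to -0.37), which did not pass after adjustment (0.152). This call was lost without day 3 (adjusted p = 0.20), without day 5 (0.15) and with all 26 libraries (0.0772). In EA3 itself Fosl2 passed when the 2 libraries labelled day 7 were added (log2 0.77, adjusted p = 0.0459). Those 2 libraries correlated more closely with EA2 than with EA3, so the fit with all 26 libraries cannot decide the effect in EA3. Of the other members, Fosl1 and Junb had an unadjusted p under 0.05 for a difference between lines. DESeq2 called Junb as well (adjusted p = 0.0213), and so did edgeR without day 1 (0.0442).

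**Figure D2:**
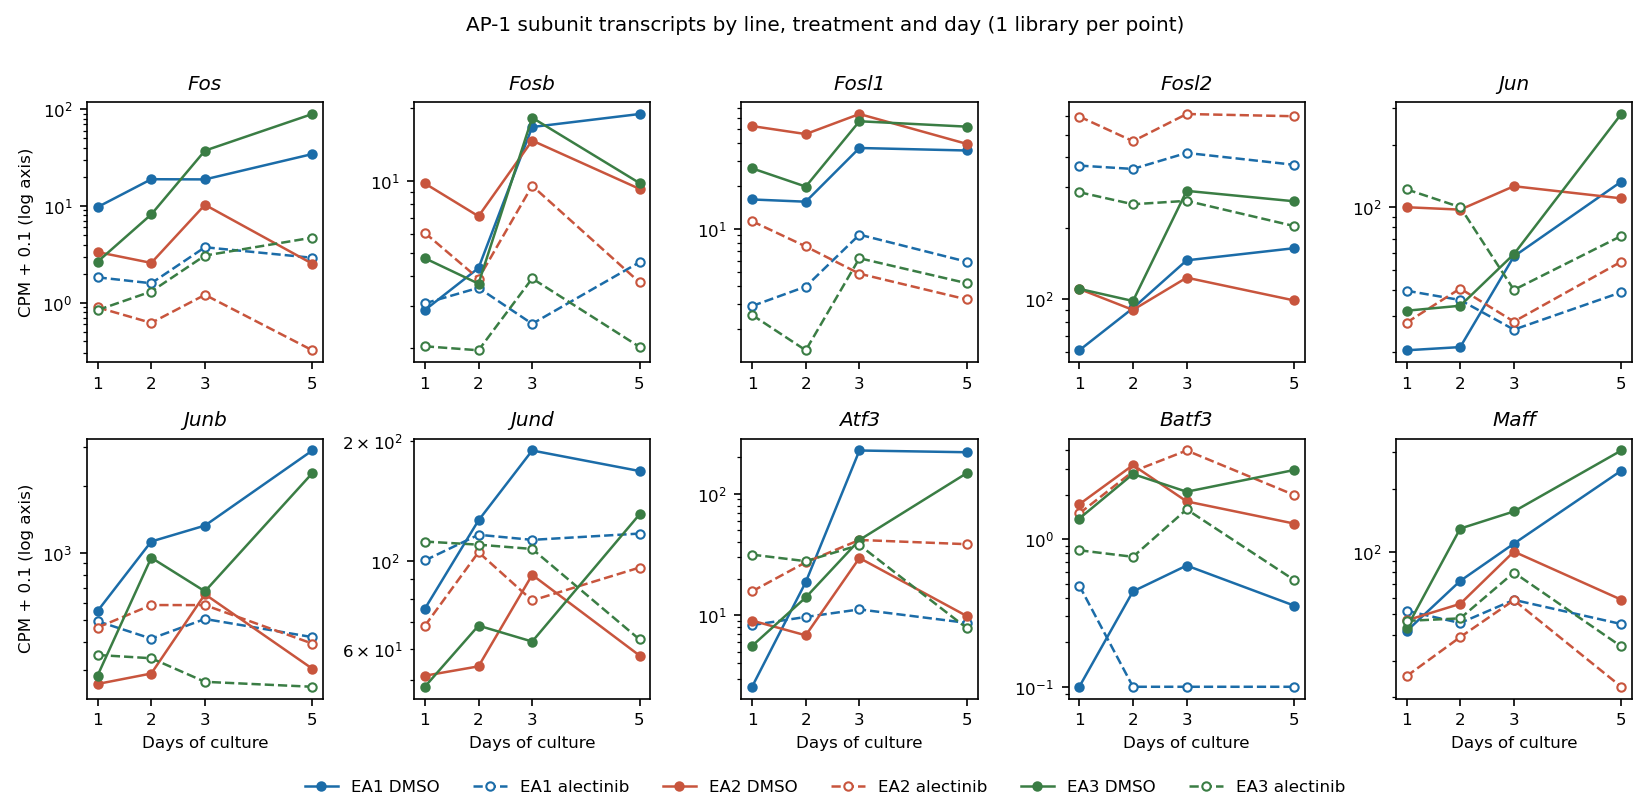
Level of each AP-1 subunit transcript (CPM with a small constant added, log axis) by day (x axis), with 1 library per point, lines by colour, DMSO as filled points with solid lines and alectinib as open points with dashed lines. The DMSO curves of EA1 and EA3 climb for most members, whereas Fosl2 with alectinib stays between 357 and 418 CPM in EA1 and between 469 and 611 CPM in EA2.

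Fosb, an immediate early gene like Fos, was low throughout. DMSO levels ran from 2.79 to 18.9 CPM in EA1 (median 10.4), 7.01 to 14.6 in EA2 (median 9.39) and 3.62 to 18.2 in EA3 (median 7.16), and alectinib levels from 2.43 to 4.47 (median 3.23), 3.67 to 9.42 (median 4.89) and 1.87 to 3.81 CPM (median 1.94). The groups overlapped in each line. Fosb fell with alectinib by 1.31 ± 0.43 on the log2 scale in EA1 (edgeR adjusted p = 0.0318) and by 1.72 ± 0.43 in EA3 (0.00768), and the change in EA2 was -0.87 ± 0.40 (0.134), which passed with the line fitted alone (-0.89, 0.0214). The EA1 call was lost without day 3 (log2 -0.80, adjusted p = 0.242), without day 5 (-0.99, 0.183) and with the line fitted alone (-1.32, 0.0903), and the EA3 call without day 5 (-1.50, 0.054).

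The length-scaled make-up of the Fos family differed between the treatments. In CPM per kilobase of exon, Fosl2 made up a mean of 34.4% of the summed Fos family level in EA1 in DMSO (32.7% to 36.8% over the 4 days), 28.2% in EA2 (25.2% to 31.9%) and 38.6% in EA3 (29.3% to 43.5%). With alectinib its share was 90.5% in EA1 (87.1% to 93.7%), 92.9% in EA2 (90.0% to 96.5%) and 89.2% in EA3 (83.2% to 94.7%). The ranges did not overlap in any line, EA3 included, where Fosl2 itself did not pass the test. The other side of this shift was Fosl1, which held 36.5%, 63.1% and 38.6% of the family in DMSO and 5.91%, 5.21% and 5.87% with alectinib in EA1, EA2 and EA3. Fos held 24.9%, 4.58% and 20.2% in DMSO and 2.32%, 0.439% and 3.64% with alectinib. The summed level of the family was 35.1 ± 15.5 (SD, n = 4) and 43.4 ± 4.34 CPM per kilobase in EA1 in DMSO and alectinib, 39.2 ± 8.38 and 63.2 ± 7.11 in EA2, and 54.6 ± 34.7 and 29.0 ± 3.08 in EA3. These shares follow from the levels given above and were not tested on their own. Exons of Ccdc85b overlap 57.2% of the Fosl1 exon bases, so the Fosl1 level per kilobase, and each share with it, is uncertain.

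**Figure D3:**
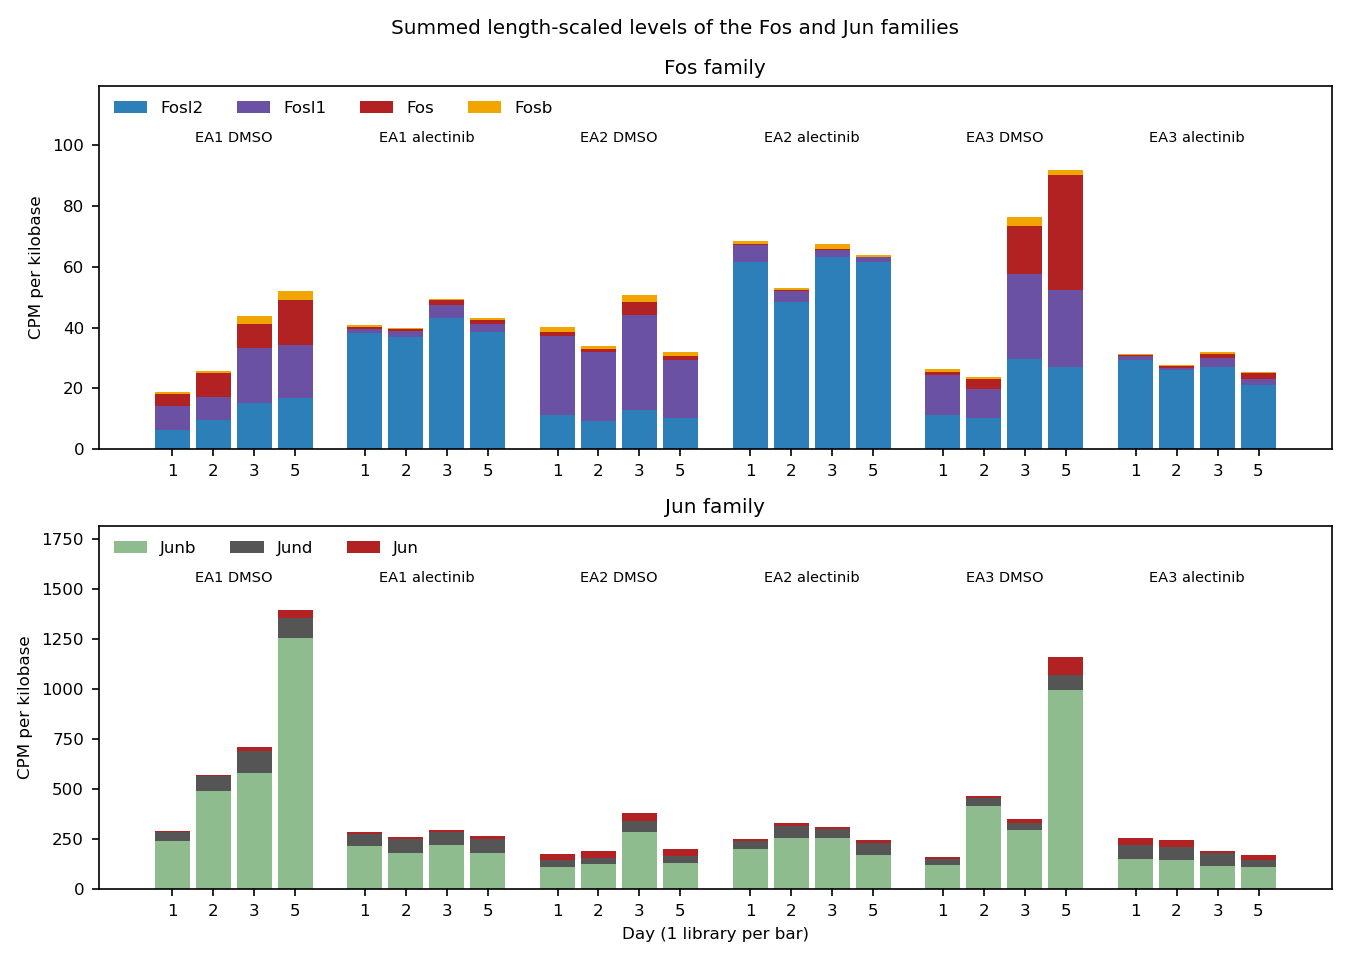
Summed level of the Fos family (upper panel) and the Jun family (lower panel) in CPM per kilobase of exon (y axis), with 1 library per bar, ordered by line, treatment and day, and genes stacked by colour. With alectinib, Fosl2 makes up 83.2% to 96.5% of each Fos family bar; the Junb part of the DMSO bars is tallest on day 5 in EA1 and EA3.

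Junb, which encodes the Jun protein often described as a weaker activator than c-JUN, had on average the highest level of the Jun family per kilobase. It held a mean of 84.8%, 67.9% and 83.6% of the summed Jun family level in DMSO in EA1, EA2 and EA3, and 71.8%, 77.2% and 60.9% with alectinib. Exons of Gm11175 overlap 52.6% of the Jund exon bases, so these shares are uncertain as well. In EA1, Junb was at 550, 1128, 1330 and 2889 CPM on the 4 days in DMSO and at 495, 414, 507 and 420 CPM with alectinib. In EA2 it was at 259, 288, 654 and 303 CPM in DMSO and at 464, 585, 585 and 393 CPM with alectinib. In EA3 it was at 282, 954, 674 and 2286 CPM in DMSO and at 349, 338, 265 and 251 CPM with alectinib. The groups were separate in EA1 and overlapped in EA2 and EA3, and the alectinib levels stayed within a narrow range while the DMSO levels of EA1 and EA3 climbed. The log2 fold change was -1.44 ± 0.48 in EA1 (edgeR adjusted p = 0.0336), 0.52 ± 0.46 in EA2 (0.446) and -1.43 ± 0.49 in EA3 (0.0404). Both calls were lost without day 2 (log2 -1.47 in EA1 and -1.42 in EA3, adjusted p = 0.0944 and 0.137) and without day 3 (-1.48 and -1.45, 0.131 and 0.132), with values close to those of all days, and without day 5, where the log2 change was -0.99 in EA1 (0.0769) and -0.83 in EA3 (0.147). The EA3 call was also lost with library size alone (0.0539) and with the line fitted alone (0.112). Prdx2, which overlaps Junb, had log2 changes of 0.72, 0.77 and 0.42 (adjusted p = 0.00368, 0.00306 and 0.0549), and its part in the Junb values was not tested.

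Jun encodes c-JUN, the founding member of the Jun family and a partner of c-FOS. In EA1, Jun was at 20.4, 21.1, 57.9 and 133 CPM in DMSO and at 39.5, 35.7, 25.7 and 38.9 CPM with alectinib. In EA2 it was at 99.9, 97.3, 126 and 110 CPM in DMSO and at 27.7, 40.5, 28.0 and 54.6 CPM with alectinib. In EA3 it was at 31.7, 33.5, 59.4 and 281 CPM in DMSO and at 122, 100.0, 39.9 and 72.6 CPM with alectinib. EA2 was the line in which the groups did not overlap, with all 4 alectinib days lower. In EA1 and EA3 the alectinib library was higher on days 1 and 2 and lower on days 3 and 5. No line passed the test. The log2 fold change was -0.32 ± 0.61 in EA1 (edgeR adjusted p = 0.709), -1.57 ± 0.58 in EA2 (0.0694) and 0.28 ± 0.64 in EA3 (0.775). The EA2 change passed with DESeq2 (adjusted p = 0.0393), with the line fitted alone (0.00152) and without day 5 (0.0321). Junos, which overlaps Jun on the other strand, fell in EA2 with a log2 change of -2.05 (edgeR adjusted p = 0.0185), from 19 to 45 counts in DMSO to 1 to 15 with alectinib, and its part in the Jun values was not tested.

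Jund encodes a Jun protein that is commonly described as constitutively expressed. DMSO levels were 75.5 to 189 CPM in EA1, 51.2 to 92.0 in EA2 and 48.0 to 131 in EA3, and alectinib levels 100.0 to 117, 68.4 to 105 and 63.2 to 112 CPM. The groups overlapped in each line, and the log2 fold change was -0.25 ± 0.30, 0.47 ± 0.31 and 0.43 ± 0.31 (edgeR adjusted p = 0.548, 0.292 and 0.32). Without day 5 the EA3 change was 0.92 and passed (adjusted p = 0.0246). Gm11175, whose exon bases all lie within Jund exons, was at 0 counts in every library.

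Atf3 encodes a stress-induced repressor and activator that dimerises with Jun proteins. In EA1, Atf3 was at 2.47, 18.6, 228 and 220 CPM in DMSO and at 8.18, 9.56, 11.1 and 8.53 CPM with alectinib. In EA2 it was at 8.92, 6.72, 29.5 and 9.73 CPM in DMSO and at 15.6, 27.2, 41.6 and 38.4 CPM with alectinib. In EA3 it was at 5.47, 13.9, 41.6 and 148 CPM in DMSO and at 31.4, 27.8, 37.8 and 7.72 CPM with alectinib. The order of the treatments changed with the day: alectinib was higher on day 1 in EA1 and on days 1 and 2 in EA3, lower on later days, and higher on each day in EA2. Over the 4 days the log2 fold changes for EA1, EA2 and EA3 were -2.39 ± 1.23, 1.3 ± 0.98 and 0.02 ± 1.1, and no line passed (edgeR adjusted p = 0.151, 0.372 and 0.991). The EA1 change passed without the day block (log2 -3.65, adjusted p = 0.00894), and the EA2 change with the line fitted alone (0.0169).

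Maff encodes a small MAF protein without a transactivation domain. DMSO levels ran from 41.4 to 245 CPM in EA1 (median 90.7), 46.7 to 100.0 in EA2 (median 57.4) and 42.9 to 306 in EA3 (median 142), and alectinib levels from 44.8 to 58.6 (median 48.6), 22.4 to 58.4 (median 32.0) and 35.0 to 79.3 CPM (median 47.1). The log2 fold change was -0.92 ± 0.46, -0.90 ± 0.45 and -1.34 ± 0.47 (edgeR adjusted p = 0.141, 0.169 and 0.0446), so that the fall passed in EA3. That call was lost under 7 of 12 alternatives, among them without day 2 (adjusted p = 0.148), without day 3 (0.12) and without day 5 (log2 -0.74, adjusted p = 0.0967). In EA1 the change passed without day 1 (log2 -1.29, adjusted p = 0.0498). With each line fitted alone the change passed in EA2 (log2 -0.92, adjusted p = 0.00669) and was lost in EA3 (0.108). Batf3, known for its role in dendritic cells, was counted 0 to 5 times per library in EA1, 14 to 35 times in EA2 and 4 to 22 times in EA3, and no difference with alectinib was detectable in EA2 (edgeR adjusted p = 0.722) or EA3 (0.154) at this depth. In EA1, 4 of its 8 libraries were at 0, so no fold is given, and it passed the test without day 1 alone (edgeR adjusted p = 0.0239).

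**Figure D4:**
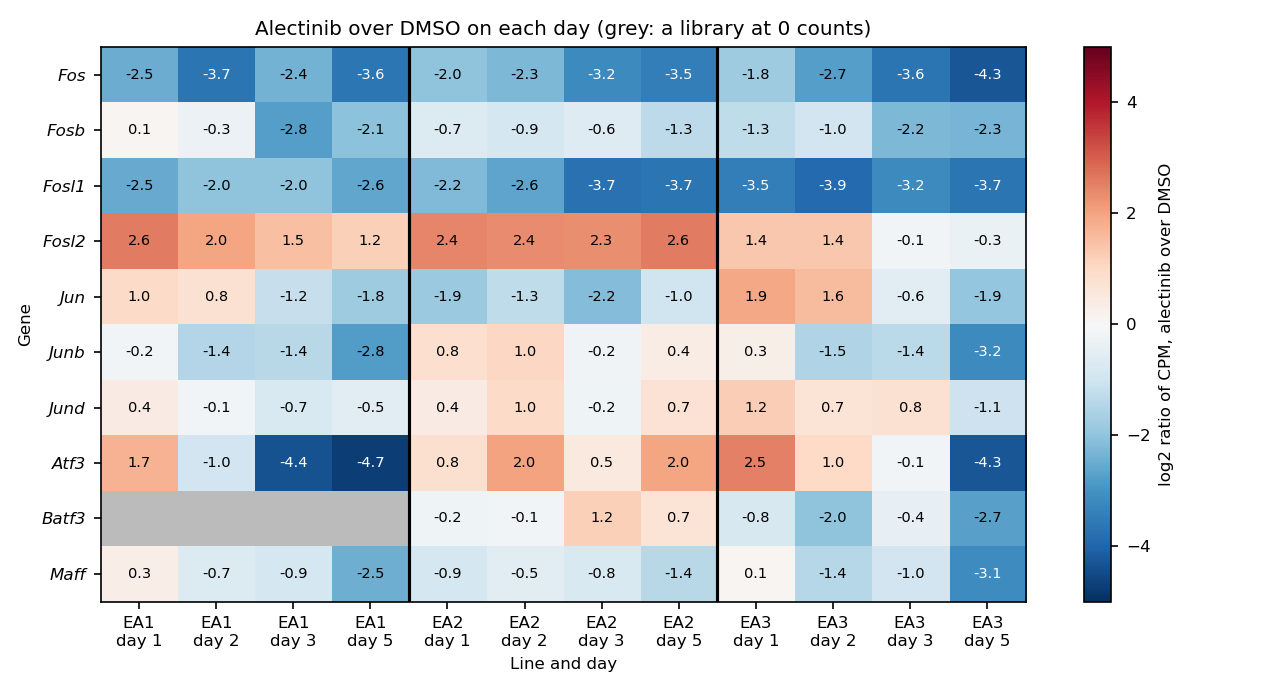
Log2 ratio of CPM, alectinib over DMSO (colour and printed value), for each gene (y axis) by line and day (x axis), with 1 pair of libraries per cell. Fos and Fosl1 are negative on all 12 line and day pairs, Fosl2 falls from 2.61 on day 1 to 1.18 on day 5 in EA1, and Jun changes from positive to negative between days 2 and 3 in EA1 and EA3.

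The level of most members rose with time in the DMSO cultures. No member passed the same test in the alectinib cultures, and a direct comparison of the 2 slopes called Junb alone. With 1 slope shared by the 3 lines, 8 of 10 members rose per doubling of days in DMSO, where 11.1% of all genes rose and 12.4% fell. Atf3 had the steepest slope (log2 1.77 ± 0.39 per doubling, edgeR adjusted p = 0.0041), followed by Fos (1.11 ± 0.30, 0.0122), Jun (0.92 ± 0.21, 0.00423), Maff (0.87 ± 0.17, 0.00203), Junb (0.85 ± 0.15, 0.00153), Fosb (0.68 ± 0.23, 0.0393), Jund (0.44 ± 0.11, 0.00773) and Fosl2 (0.43 ± 0.12, 0.0125). Fosl1 (0.34 ± 0.21, 0.237) and Batf3 (0.24 ± 0.35, 0.66) did not pass. With alectinib, no member passed in either direction or had an unadjusted p under 0.05, and slopes ran from -0.22 to 0.53, where 0.519% of all genes rose and 0.140% fell. Without the day 1 libraries none of the 8 calls remained (adjusted p between 0.152 and 0.373), although the slopes ran from 0.41 for Jund to 1.95 for Atf3 and that of Jun was 1.6, and no gene of the table passed in either direction. Without day 5, the call was lost for Fosb (adjusted p = 0.0535), Fosl2 (0.0504) and Jun (0.0924), and without day 2 for Fos (0.0562) and Fosb (0.118). With all 26 libraries it was lost for Fos (0.0718) and Fosl2 (0.065), and without the filter on low counts for Fos (0.0502) and Fosb (0.0611). Slopes were fitted with edgeR alone.

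**Figure D5:**
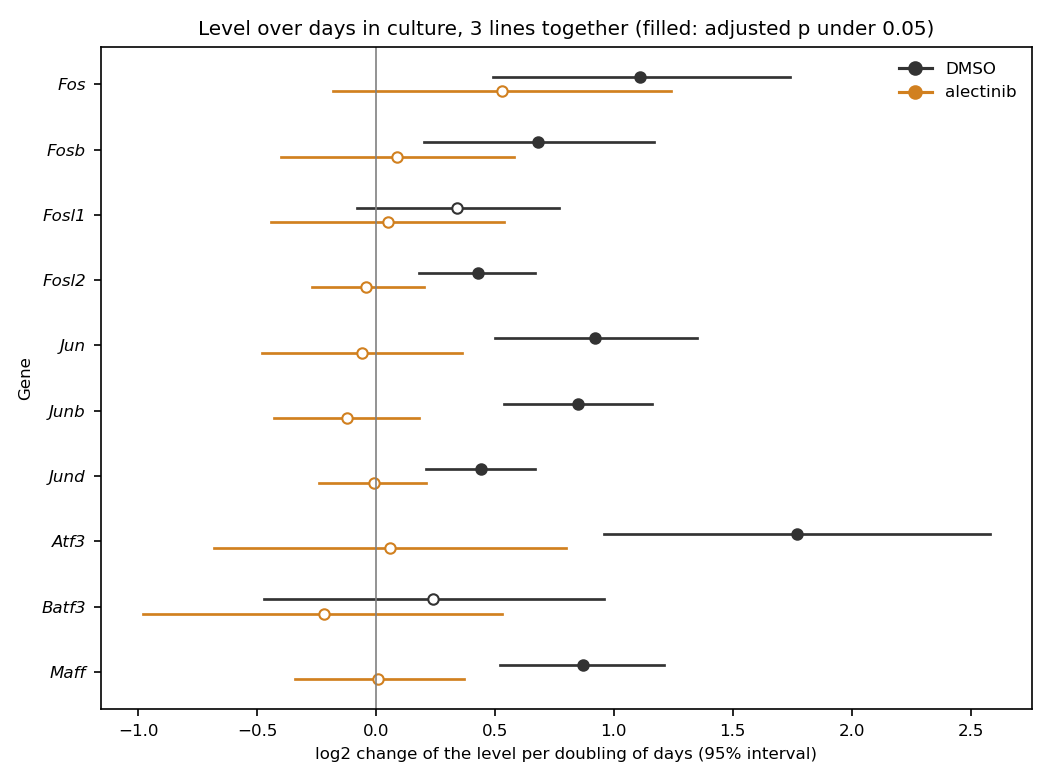
Log2 change of the level per doubling of days (x axis) for each gene (y axis), fitted over the 3 lines together in DMSO (dark) and alectinib (orange) cultures, with 95% intervals as bars and filled points where the edgeR adjusted p was under 0.05. The 8 filled points are all in DMSO, and the alectinib intervals of all 10 genes include 0.

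The shared slope covers lines that did not move alike. In EA1 and EA3, the DMSO level on day 5 was above that on day 1 for every member with a count on both days, by 2.21-fold (Fosl1) to 89.3-fold (Atf3) in EA1 and by 1.96-fold (Fosl1) to 35.0-fold (Fos) in EA3. Junb was 5.25-fold and 8.09-fold higher, Jun 6.51-fold and 8.87-fold, and Maff 5.91-fold and 7.14-fold. In EA2, the same ratio lay between 0.724 (Batf3) and 1.26 (Maff), and 4 members reached their highest DMSO level on day 3 at a distance from the other days. These are ratios of single libraries and were not tested per line. A direct comparison of the slopes, added after the values were seen, called Junb, whose slope with alectinib minus that in DMSO was -0.97 ± 0.21 (edgeR adjusted p = 0.0476), where 0.203% of all genes were lower and 0.105% higher. The other 9 members did not pass (0.0918 to 0.676). All 10 differences were negative, as were 50.7% of those of all genes, and 6 had an unadjusted p under 0.05, against 8.35% of all genes. The Junb call was lost when any 1 day was left out (adjusted p = 0.051 to 0.933) and with all 26 libraries (0.125).

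Within lines, the slope of the alectinib effect over log2 of the day was negative for all 10 members in EA1 and in EA3 and for 5 of 10 in EA2, but no member passed the test over all genes. After adjustment 0.0210%, 0.00% and 0.0631% of all genes passed in EA1, EA2 and EA3. At an unadjusted p under 0.05 there were 7 of 10 members in EA1 (Batf3 with its few counts included), 1 in EA2 and 7 in EA3, against 11.3%, 5.93% and 13.0% of all genes. With all 26 libraries, Jun passed in EA3 (log2 -1.58, edgeR adjusted p = 0.0417). The most negative values in EA3 were for Atf3 (log2 -2.79 ± 0.55 for each doubling, edgeR adjusted p = 0.0884), Jun (-1.76 ± 0.33, 0.0774), Junb (-1.39 ± 0.25, 0.0759) and Maff (-1.25 ± 0.26, 0.0983). In EA1 the same genes had values of -2.95 ± 0.56 for Atf3 (0.136), -1.28 ± 0.33 for Jun (0.20), -1.05 ± 0.25 for Junb (0.162) and -1.13 ± 0.26 for Maff (0.155). Without day 3, Atf3, Junb and Maff passed in both lines (adjusted p = 0.0475 in EA1 and 0.0333 in EA3). For Fosl1 the slope was -0.03 ± 0.24 in EA1 and -0.02 ± 0.26 in EA3 (0.995 or more), and in EA2 it was -0.70 ± 0.22 (0.645). The 95% intervals of -0.55 to 0.5 in EA1 and -0.6 to 0.56 in EA3 leave room for a slope in either direction. Few genes of any kind passed this test, so it cannot decide whether the Fosl1 effect was steady in those lines.

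Levels in the DMSO cultures differed between lines for 4 of 10 members, where 40.6% of all genes did. Batf3 was at 0 to 0.562 CPM in EA1, 1.17 to 3.07 in EA2 and 1.28 to 2.83 in EA3 (edgeR adjusted p = 0.00702). Jund was lower in EA2 than in EA1, with a log2 difference of -1.13 ± 0.35, and EA3 lay between them (0.0334). For Fos the 3-line test gave 0.0454, and of the pairs EA3 minus EA2 passed (log2 2.88 ± 0.87, edgeR adjusted p = 0.0263) while EA2 minus EA1 did not (-2.14 ± 0.85, 0.0752). For Junb the 3-line test gave 0.0461, and of the pairs EA2 minus EA1 passed (-1.97 ± 0.60, 0.0247) while EA3 minus EA2 did not (1.47 ± 0.59, 0.0842). EA1 and EA3 did not differ beyond their spread in Fos (log2 0.74 ± 0.80) or Junb (-0.50 ± 0.58). The Fos call was lost without day 2 (adjusted p = 0.12), day 3 (0.0717) or day 5 (0.286), that of Junb without day 2 (0.184), day 3 (0.063) or day 5 (0.153), that of Jund without day 2 (0.148) or day 3 (0.0867), and that of Batf3 without day 2 (0.0614). Without day 5, Jun passed (0.0161). With library size alone, Fos (0.0532) and Junb (0.0602) were lost and Fosl1 passed (0.047). Without the filter on low counts Fos (0.214) and Junb (0.206) were lost, and with at least 10 counts in every library Junb (0.0697) and Jund (0.0588). With all 26 libraries the calls of Fos (0.0783), Junb (0.0574) and Jund (0.0585) were lost. The test held no term for the day, and with the day as a block over the 3 lines 7 of 10 members differed, where 54.9% of all genes did, with Fosl1 (edgeR adjusted p = 0.00897), Fosl2 (0.049) and Jun (0.023) added.

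Many genes commonly described as AP-1 targets fell with alectinib. Of 15 target genes tested, 11 fell in EA1, 9 in EA2 and 10 in EA3, where 15.8%, 11.3% and 15.8% of all genes fell, with a median log2 fold change of -1.02, -1.48 and -1.53. None rose in EA1 or EA3 and 2 in EA2, among them the cyclooxygenase gene Ptgs2. The 8 that fell in all 3 lines were the matrix metalloproteinase genes Mmp10 and Mmp13, the cyclin gene Ccnd1, the hyaluronan receptor gene Cd44, the growth factor and cytokine genes Hbegf and Lif, the chromatin protein gene Hmga1 and the secreted phosphoprotein gene Spp1. Mmp13 fell by 2.57 ± 0.71, 6.0 ± 0.91 and 3.95 ± 0.80 on the log2 scale in EA1, EA2 and EA3 (edgeR adjusted p = 0.0153, 0.000454 and 0.00262). Spp1 fell by 3.15 ± 0.35, 4.78 ± 0.39 and 3.15 ± 0.36, from between 2400 and 16600 CPM in DMSO to between 44.4 and 1680 CPM. Hmga1, which has near-identical copies elsewhere in the mouse genome that the counting could confuse with it, fell by 5.08 ± 0.47, 4.13 ± 0.44 and 3.40 ± 0.42. Exons of LTO1 on the other strand overlap 23.4% of the Ccnd1 exon bases, and a transcript of the same strand overlaps 18.8% of those of Spp1. Cd44 had the smallest fall of the 8, with 0.45 ± 0.15, 0.44 ± 0.15 and 0.46 ± 0.15. The list was written with earlier results of these data known, its genes have many regulators besides AP-1, and no test of the list was made.

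Of 15 upstream kinases and factors, 2 fell in each line, a share near that of all genes, and none rose. Rps6ka1, an ERK-activated ribosomal S6 kinase gene, was the 1 gene that fell in 2 lines, by 0.80 ± 0.23 in EA2 (edgeR adjusted p = 0.0217) and 1.04 ± 0.23 in EA3 (0.0038). The median log2 fold change of the list was -0.14, -0.10 and -0.25. Of 9 other partners of AP-1 dimers, 7 were tested. Maf, which encodes a large MAF protein, rose in 2 lines, by 3.69 ± 0.33 on the log2 scale in EA1 (6.36e-06) and 1.21 ± 0.30 in EA2 (0.00924), and was at 0.11 ± 0.32 in EA3 (0.824). Batf was at 0 counts in every library.

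The genes most like each member over the 24 libraries are given as a description, because the points share lines and treatments. For Fos they were Mipol1 (Pearson r of log2 CPM 0.929) and Nab2 (0.924), for Fosl1 Bin1 (0.902) and Piga (0.896), and for Fosl2 Chp1 (0.934) and Dlc1 (0.872). For Junb they were Lemd2 (0.893) and Metrnl (0.886), for Atf3 Ppp1R15A (0.88) and Ndel1 (0.861), and for Maff Hilpda (0.936) and Smox (0.91). For Jun, Camta1 had an r of 0.684. Fosb was closest to Eaf1 (0.877) and Gid4 (0.867), Jund to Dctn2 (0.833) and Tinagl1 (0.831), and Batf3 to Tcf24 (0.912) and Tnfrsf26 (0.911). Among the members, Fos and Maff had an r of 0.858, and Fos and Fosl2 -0.474.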

How the data were processed

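RNA of the 3 lines was sequenced with a stranded mRNA kit. Per the labels and the study's methods, the authors trimmed reads, aligned them with STAR to mm10 and counted them per gene with its internal counter. The counted strand, the annotation release and the versions are not given in the sources used here. The deposited table holds raw counts per gene. Here, 24 rows whose symbols had turned into date numbers (0.129% to 0.201% of counts) were left out.

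The main test was edgeR 4.0.16 quasi-likelihood with robust dispersion and TMM factors in R 4.3.3 on 14264 genes kept by filterByExpr, with 12 line and day blocks and an alectinib effect per line. The pairing comes from the labels (same line and day), and deviations of paired libraries from their group means correlated at -0.3 to 0.549. Other fits tested a difference between lines (2 degrees of freedom), DMSO levels, and slopes on log2 of the day. P-values were adjusted by Benjamini-Hochberg over all tested genes, with a threshold of 0.05. For likeness, log2 CPM (prior count 2) was correlated, naming the 2 closest genes of each member among those above an average log2 CPM of 3. Some results that fall under these rules are not reported here. All members are named, and of each other list the genes past the threshold in all 3 lines with 1 sign or, where there are none, in 2 lines. Ptgs2, Batf, the genes overlapping members and the line and marker checks were named after their values were seen. The scripts were tested on simulated data. Alternatives were DESeq2 1.42.0, other scalings and filters, single-line fits, fits with or without day blocks, all 26 libraries, and leaving out each day.

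The members and gene lists were chosen with earlier results of these data known. P-values measure the spread over days, with 1 library per line, treatment and day. Except where each line was fitted alone, that spread was 1 value per gene shared by the lines. A p-value for 1 line therefore does not rest on the days of that line alone. For Jun in EA2 the edgeR adjusted p was 0.0694 in the main test and 0.00152 with the line fitted alone. Fosb, Atf3 and Maff in EA2 also passed when fitted alone, whereas Fosb in EA1 and Junb and Maff in EA3 were lost.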

Additional observations from a re-analysis of the deposited data

Results flagged for a closer look

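Of 60 groups of 4 libraries (10 genes in 3 lines and 2 treatments), 9 held a library far from the other 3, where chance gives about 1 group in 20 and where the 4 libraries are different days and not repeats. In 4 cases it was the EA2 DMSO library of day 3, the highest of its group for Fos (10.2 CPM), Junb (654 CPM), Jund (92.0 CPM) and Atf3 (29.5 CPM). Jun was far above the other days in the EA3 DMSO library of day 5 (281 CPM). With alectinib, Fosb was high in EA3 on day 3 (3.81 CPM), Jund was low in EA3 on day 5 (63.2 CPM), Fosl2 was low in EA2 on day 2 (469 CPM), and Batf3 in EA1 was above 0 on day 1 alone (0.385 CPM).

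The alectinib effect on Fosl2 differed between the lines (edgeR adjusted p = 0.0322). In the 2 libraries labelled EA3 day 7, which no main comparison used, the log2 ratio of Fosl2 was 1.62, beside EA3 ratios of 1.36 on day 1, 1.36 on day 2, -0.141 on day 3 and -0.349 on day 5. The EA2 ratios on the same days were 2.43, 2.38, 2.31 and 2.6. The 2 libraries correlated more closely with EA2 than with EA3.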

How the results depend on the processing

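The calls of Fos and Fosl1 in the 3 lines and of Fosl2 in EA1 and EA2 held under each alternative that gave a value (11 for Fos, 12 for Fosl1 and Fosl2), and no value past the threshold in either fit changed sign. Among values that did not pass, the log2 change of Jun ran from -0.74 to 0.2 in EA1 and from -0.32 to 1.05 in EA3, and that of Atf3 in EA3 from -0.99 to 1.11. Library size alone moved the median of all genes by 0.128, -0.049 and 0.146 on the log2 scale in EA1, EA2 and EA3. Depth limits Batf3, which had at most 5 counts in EA1, and Fos in EA2 with alectinib, which had 2 to 10 counts per library. The unfiltered fit gave very small adjusted p-values for several members, and the cause was not tested. The causes of the other changes below were not tested either.

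Leaving out 1 day at a time, genes that rose and fell with alectinib numbered 1436 to 2181 and 1360 to 1907 in EA1 (2565 and 2255 with all days), 1157 to 1349 and 985 to 1306 in EA2 (1855 and 1609), and 1447 to 2053 and 1389 to 1836 in EA3 (2348 and 2254). Members lower numbered 2 to 6 in EA1 and 2 to 5 in EA3, and members higher in EA3 0 to 1. Genes whose effect differed between lines numbered 211 to 792, with 0 to 2 members. For the effect per doubling of days, genes called numbered 0 to 45 in EA1, 0 to 1 in EA2 and 0 to 78 in EA3, with 0 to 3 members in EA1 and 0 to 3 in EA3. For the DMSO level over days, 0 to 8 members and 0 to 1605 genes rose and 0 to 1754 fell, and with alectinib 0 to 97 rose and 0 to 32 fell. For the slope difference, 0 to 23 genes were higher and 0 to 63 lower, with 0 to 0 members. DMSO levels differed between lines for 3688 to 4766 genes and 0 to 4 members.

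Without a filter on low counts, members called in EA2 were 3 higher and 4 lower, where 1769 and 1913 of 33394 genes were. In EA3 1 member was higher, where 2464 genes were. Between lines 5 members and 2698 genes differed. The effect per doubling of days called 2 members and 51 genes in EA1, 21 genes in EA2 and 2 members and 78 genes in EA3. Over days with alectinib 125 genes rose, the slope difference called 26 genes higher and 0 members, and 2 members differed between lines in DMSO. With at least 10 counts in every library, 8 members were tested, Fos and Batf3 being left out, so that the counts fell partly by construction. In EA2 1 member was lower and in EA3 3, where 1332 and 1816 of 9851 genes were. The effect per doubling called 1 member and 26 genes in EA3. Over days with alectinib 5 genes rose and 8 fell, 23 genes had a higher slope, and 0 members and 3003 genes differed in DMSO. With each line fitted alone, 2 members were higher and 5 lower in EA2, where 2023 and 1961 of 12230 genes were. In EA3 3 members were lower, where 1541 of 12522 genes were. With library size alone, 3 members were lower in EA3, where 1662 of 14264 genes were. The effect per doubling called 1 gene in EA1 and 3 in EA3, and 23 genes had a higher slope. DESeq2 called 2 members and 1955 genes as different between lines. With all 26 libraries, 1 member was higher in EA3, where 2305 of 14335 genes were. Between lines 0 members and 398 genes differed. The effect per doubling called 0 genes in EA1 and 1 member and 45 genes in EA3. Over days with alectinib 36 genes rose, the slope difference called 9 genes higher, 11 lower and 0 members, and 1 member differed in DMSO.

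With the day number as a replicate block over the 3 lines, 7 members differed between lines in DMSO in place of 4. Correlations of same-day deviations between lines were 0.0895 to 0.612 and above 0.1 in 10 of 12 pairs, and a library correlated best with its own day in 18 of 24 comparisons with another line. The reported fit of DMSO levels has no term for the day, and whether libraries of 1 day share more than time in culture was not tested. Without the day block, Atf3 passed in EA1 (adjusted p = 0.00894).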

Other observations

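In the 2 libraries labelled EA3 day 7, which stand closer to EA2 than to EA3, Fos was at 10.2 CPM in DMSO and 0.763 CPM with alectinib, and Fosl1 at 77.1 and 3.22 CPM. Fosl2 was at 164 and 504 CPM, Jun at 213 and 56.4 CPM, Junb at 556 and 322 CPM, and Atf3 at 62.9 and 65.2 CPM. The log2 ratios of alectinib over DMSO were -3.74 for Fos, -3.22 for Fosb, -4.58 for Fosl1, -1.92 for Jun and -1.95 for Maff. There is 1 library per treatment, so these ratios have no replicate check.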
